A study of Drosophila melanogaster with 6 samples.

Results

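The proteasome subunit genes of Drosophila S2 cells were followed across 6 RNA-seq libraries. The members were 32 genes chosen by CG number out of 14012 genes in the deposited table. Their measured values were not used for the choice, but earlier results of these data were known. They comprised 14 genes of the core particle (7 α and 7 β subunits), 17 genes of the regulatory cap (6 Rpt and 11 Rpn subunits) and REG, the gene of a separate activator. All 32 were above the minimum level used for testing, as were 7308 genes in all. The 32 members gave 43 transcript rows, because 8 of them had several annotated transcripts.

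The proteasome is the protease that degrades most ubiquitin-tagged proteins of the cytoplasm and nucleus. Its core is a barrel in which outer rings of α subunits form the gate and inner rings of β subunits hold the active sites, which lie in β1, β2 and β5. The cap binds ubiquitin chains and removes them, and its Rpt subunits form a ring of ATPases that unfolds the substrate and threads it into the core, while REG, the Drosophila 11S activator, opens the gate without ATP or ubiquitin. Subunits are built into the particle in fixed proportions, and in flies the transcription factor CncC raises the genes of core and cap together when proteasome activity is low.

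The study asked how PARP1, the enzyme that makes most poly(ADP-ribose) chains, and its activity affect RNA in S2 cells. Of the 6 libraries, 2 came from cells given PJ34, a small molecule inhibitor of PARP activity, 2 from cells given double-stranded RNA against PARP1 (PARP1 KD) and 2 from untreated cells (Control). All were S2-DRSC cells, a line from late embryos, and no allele or transgene was named for any group. PJ34 was added for 10 h, at 10 µM for 1 library and 0.3 µM for the other, and the double-stranded RNA was given at doses of 100 and 500, in nanograms in one label and in micrograms in another. The columns of the table named the treatment but not the dose, so no dose was assigned and both libraries of a treatment were used as replicates. The controls received no double-stranded RNA, so PARP1 loss and the mere presence of double-stranded RNA cannot be told apart. The paper describes the 2 libraries of each group as biological replicates. Apart from the doses, nothing in the labels says how separate the cultures of a group were, and the spread between its libraries may be partly technical.

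Values are FPKM, fragments per kilobase of transcript scaled to the mapped fragments of the library, summed over the transcripts of a gene. Differences are in log2(FPKM + 1), given as PJ34 minus Control, PARP1 KD minus Control or PARP1 KD minus PJ34. They were fitted in limma over all 6 libraries, and a gene was called at a Benjamini-Hochberg adjusted p under 0.05 over all 7308 genes. Summed FPKM was 714707 to 994251 per library, and relative depths inferred from low values were 0.883 to 1.10, so depth was similar. Over 1 kb of transcript, 1 FPKM stood for an estimated 21.6 to 25.8 fragments. The least covered value of any member, Rpn13 in PJ34 library 2, corresponds to about 139 fragments and a counting error of 8.47%.

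Parp1 had 39.3 and 50.2 FPKM in PJ34, 16.7 and 10.2 FPKM in PARP1 KD, and 51.6 and 29.9 FPKM in Control, so both PARP1 KD libraries lay below the other 4, but the difference from Control did not pass the adjustment (log2 −1.51 ± 0.55, SE, n = 2 each, limma adjusted p = 0.9996). Of 10 markers of hemocytes, the blood cells that S2 cells resemble, 8 were above the minimum, and the summed FPKM of all 10 was 848 and 175 in PJ34, 1363 and 1172 in PARP1 KD, and 1224 and 1515 in Control. Col4a1 and vkg made up most of these sums, and not all markers followed them: Sr-CI had 33.9 and 15.0 FPKM in PJ34, 1.58 and 1.71 FPKM in PARP1 KD, and 0.937 and 2.498 FPKM in Control, and was called in PARP1 KD against PJ34 (log2 −3.16 ± 0.66, limma adjusted p = 0.0401). Hml and NimC1 did not reach the minimum (at most 1.55 and 2.24 FPKM in any library), and Pxn had 4.09 FPKM in Control library 1 but 101.9 FPKM in Control library 2. The summed level of 10 markers of neurons, muscle, germline and fat body was 1.69 to 4.39 FPKM in PJ34, 3.67 to 4.53 FPKM in PARP1 KD, and 4.46 to 10.1 FPKM in Control. Lsp1alpha was listed at 0 in all 6 libraries, and nSyb, Mhc, vas, nanos, bam, can and Fbp1 were below 0.3 FPKM in every library. The other two carried the sum: elav had 3.37 and 1.07 FPKM in PJ34, 0.326 and 0.470 FPKM in PARP1 KD, and 3.79 and 0.897 FPKM in Control, and Mlc2 had 0.668 and 0.377 FPKM in PJ34, 3.75 and 3.03 FPKM in PARP1 KD, and 5.93 and 3.42 FPKM in Control. The part of these markers in the results was not tested. The libraries of a group were not equally alike: 4165 genes differed at least 2-fold between the PJ34 libraries, whereas the count was 12 for the PARP1 KD pair and 1788 for the Control pair, so results for PJ34 against Control are also given without single libraries.

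All 32 genes were above 2 FPKM in every library, but their levels stood much farther apart in some libraries than in others. In PJ34 the highest member was Prosα5 (307 and 416 FPKM), at 14.3 times the lowest, Rpn1 (21.5 FPKM), in library 1 and 173 times the lowest, Rpn2 (2.40 FPKM), in library 2. In the PARP1 KD libraries Prosα1 was 6.04 and 6.75 times Rpn1. In Control library 1 the highest, Prosα2 (230 FPKM), was 2.70 times the lowest, Rpn13 (85.4 FPKM), and in Control library 2 the highest, Prosα4 (215 FPKM), was 13.5 times the lowest, Rpn2 (15.9 FPKM). The spread of the members thus placed PARP1 KD between the 2 Control libraries, and Control library 2 next to PJ34 library 1. Since FPKM already divides by transcript length, these ratios compare genes per length.

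**Figure D1:**
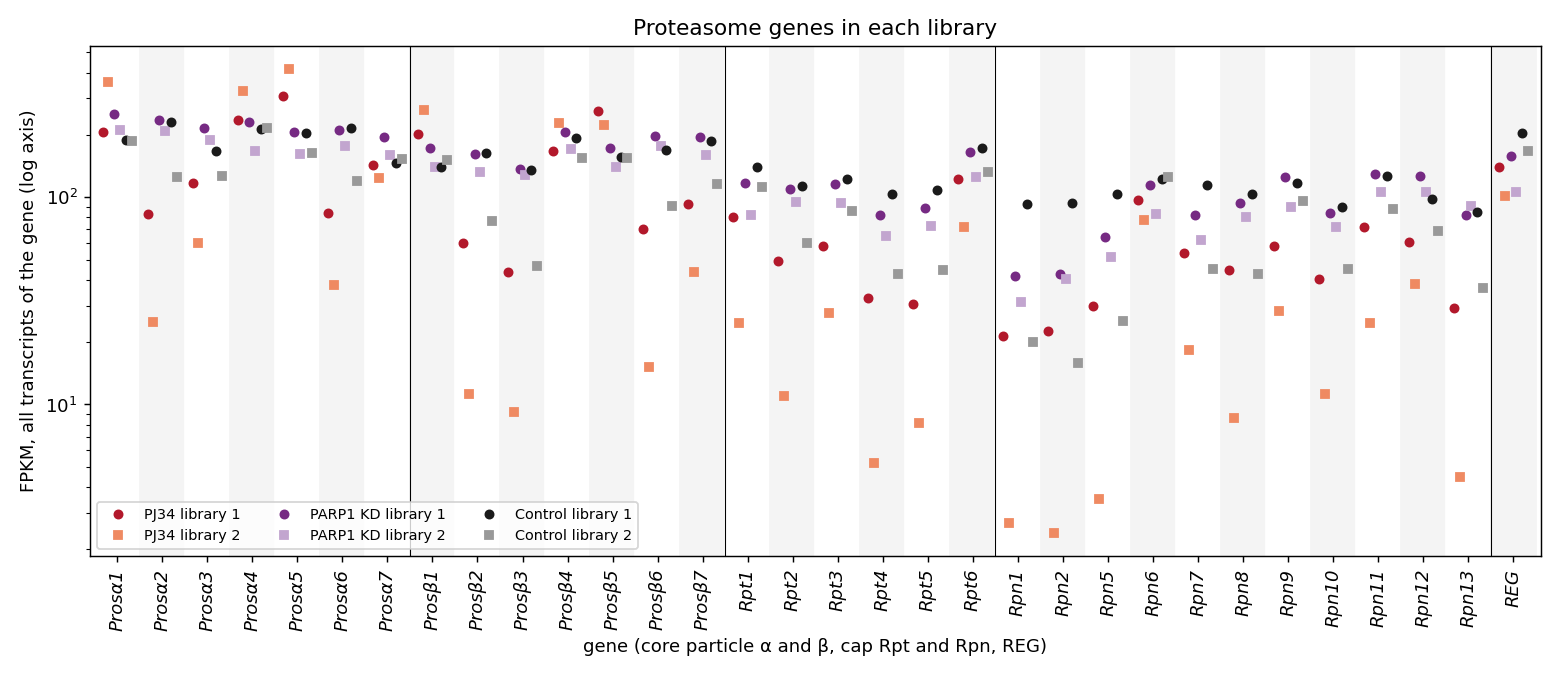
FPKM of each of the 32 genes (log axis) in each of the 6 libraries, with core α, core β, Rpt, Rpn and REG genes in blocks and the PJ34 points left of those of PARP1 KD and Control. Both blocks hold genes with wide and narrow ranges: the core gene Prosβ3 runs from 9.21 to 136 FPKM and Prosβ1 from 139 to 265 FPKM, and the cap gene Rpn2 runs from 2.40 to 93.6 FPKM and Rpn6 from 78.0 to 125 FPKM.

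The core and the cap parted in the same libraries. Core genes summed to 2072 and 2142 FPKM in PJ34, 2795 and 2325 FPKM in PARP1 KD, and 2512 and 1885 FPKM in Control. Cap genes summed to 904 and 370 FPKM in PJ34, 1666 and 1347 FPKM in PARP1 KD, and 1911 and 1085 FPKM in Control. Summed core FPKM over summed cap FPKM, a ratio within a library that no scaling of the library can move, was therefore 2.29 and 5.79 in PJ34, 1.68 and 1.73 in PARP1 KD, and 1.31 and 1.74 in Control. Both PJ34 libraries lay above the other 4, and the PARP1 KD libraries lay between the 2 controls. With medians in place of sums the ratio was 2.63 and 8.20 in PJ34, 2.14 and 2.01 in PARP1 KD, and 1.64 and 3.08 in Control, and PJ34 and Control then overlapped. An exact permutation test of 2 libraries against 2 cannot go below a two-sided p of 0.333, so these ratios are given without a test.

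**Figure D2:**
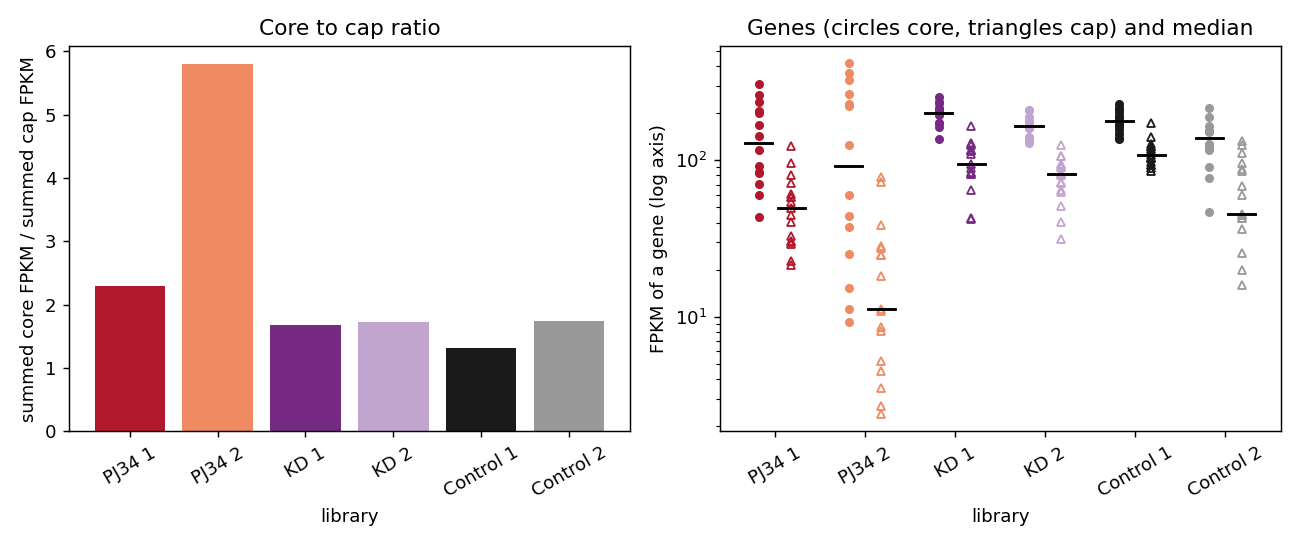
Left, summed core FPKM over summed cap FPKM in each library; right, FPKM of each core gene (filled circles) and each cap gene (open triangles) on a log axis, with the median as a bar. The ratio is highest in PJ34 library 2 (5.79), where the core median is 92.3 FPKM against 11.3 FPKM for the cap.

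The order of the subunits in Control library 2 was closer to that in either PJ34 library than to that in Control library 1. Across the 32 genes, which share the libraries and are not replicates, Spearman's rho of FPKM was 0.974 between PJ34 library 1 and Control library 2, 0.952 between PJ34 library 2 and Control library 2, and 0.848 between the 2 Control libraries. It was 0.964 within PJ34 and 0.973 within PARP1 KD. Between PJ34 library 1 and Control library 2 alone, 0 of the 32 members differed 2-fold and their median log2 difference was −0.17, as it was over all genes tested (−0.17). Between PJ34 library 2 and Control library 1, 23 members were at least 2-fold lower in PJ34 and 1 was at least 2-fold higher, with a median of −2.38, against −1.87 over all genes tested. What lies behind the likeness of Control library 2 to PJ34 was not tested, and every value for PJ34 against Control takes the labels of these libraries as given. Within groups, the PJ34 pair had 20 members that differed 2-fold, the PARP1 KD pair 0 and the Control pair 10, and library 2 was the lower for 27, 31 and 28 members in these pairs.

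In PJ34 against Control, cap genes were lower and core genes divided. The median log2 difference was −1.52 over the 17 cap genes, which were negative in 17 of 17, and −0.48 over the 14 core genes, of which 6 were positive and 8 negative, while 5840 of all 7308 genes tested were negative. Over all 7308 genes tested the median was −1.08, so that with each library centred on its median the core stood at 0.66 and the cap at −0.38, and the direction of the core turned. No member was called, against 0.643% of all genes, and the adjusted p of the members ran from 0.124 to 0.733 (limma). At an unadjusted p of at most 0.05, 1 member was higher and 18 were lower, against 5.84% and 25.3% of all genes. The groups did not overlap for 5 members that were higher and 21 that were lower in PJ34, against 13.1% and 54.1% of all genes. Without PJ34 library 1, 24 members were called, against 69.9% of all genes, and without Control library 2, 6 were called, against 4.99% of all genes.

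The α subunits, whose rings form the gate of the core, had a median log2 difference of −0.17 in PJ34 against Control. Prosα5 (CG10938, dm3 chromosome arm 2R, 13300268 to 13301274) had 307 and 416 FPKM in PJ34, 206 and 161 FPKM in PARP1 KD, and 204 and 165 FPKM in Control. Both PJ34 libraries lay above the other 4, and the log2 difference from Control of 0.96 ± 0.41 (SE, n = 2 each) was the highest of the 32 members (limma adjusted p = 0.158). Prosα1 (CG18495, 2R, 3714805 to 3716181) had 208 and 359 FPKM in PJ34, 253 and 211 FPKM in PARP1 KD, and 189 and 188 FPKM in Control. The Control pair was the closest of the 3 groups for this gene, and the difference between PJ34 and Control was 0.53 ± 0.43. Prosα6 (CG4904, 2L, 10221352 to 10222515) showed the other pattern, with 84.2 and 37.7 FPKM in PJ34, 212 and 177 FPKM in PARP1 KD, and 216 and 120 FPKM in Control, a log2 difference between PJ34 and Control of −1.50 ± 0.51. The 2 PJ34 libraries were its lowest. Of the remaining α genes, Prosα4 had 235 and 325 FPKM in PJ34, 231 and 168 FPKM in PARP1 KD, and 214 and 215 FPKM in Control. Prosα2, Prosα3 and Prosα7 were lower in both PJ34 libraries than in both Control libraries, with Prosα2 at 82.9 and 25.1 FPKM in PJ34 and 230 and 126 FPKM in Control.

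The β subunits had a median log2 difference of −1.20, and the 3 catalytic subunits did not move alike. Prosβ1 (CG8392, 2R, 11901308 to 11902285) encodes the subunit that cuts after acidic residues, and it had 201 and 265 FPKM in PJ34, 173 and 141 FPKM in PARP1 KD, and 139 and 151 FPKM in Control. Prosβ5 (CG12323, 2R, 6707468 to 6708685) encodes the subunit that cuts after hydrophobic residues, and it had 260 and 222 FPKM in PJ34, 174 and 140 FPKM in PARP1 KD, and 156 and 155 FPKM in Control. For both genes the PJ34 libraries were the highest of the 6, with log2 differences from Control of 0.67 ± 0.41 for Prosβ1 and 0.63 ± 0.40 for Prosβ5, neither called (limma adjusted p = 0.218 and 0.231). Prosβ2 (CG3329, 3L, 14993055 to 14994421) encodes the subunit that cuts after basic residues, and it had 60.0 and 11.2 FPKM in PJ34, 162 and 132 FPKM in PARP1 KD, and 163 and 77.2 FPKM in Control. Its PJ34 libraries were the lowest of the 6, and its log2 difference from Control was −2.05 ± 0.71 (adjusted p = 0.139). The level of Prosβ5 over that of Prosβ2, 2 subunits present in equal number in the particle, was 4.33 and 19.8 in PJ34, 1.07 and 1.06 in PARP1 KD, and 0.954 and 2.01 in Control. The level of Prosβ1 over that of Prosβ2 was 3.35 and 23.7 in PJ34, 1.07 and 1.06 in PARP1 KD, and 0.853 and 1.96 in Control. Near-equal levels were thus seen in PARP1 KD and Control library 1, and unequal levels in PJ34 and, to a smaller extent, in Control library 2.

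The other β genes were structural. Prosβ3 (CG11981, 3R, 4831034 to 4831948) had 43.6 and 9.21 FPKM in PJ34, 136 and 129 FPKM in PARP1 KD, and 136 and 46.6 FPKM in Control, the widest ratio between Control libraries among core genes. Prosβ6 (CG4097, 3L, 16602496 to 16603521) had 70.5 and 15.2 FPKM in PJ34, 197 and 177 FPKM in PARP1 KD, and 169 and 90.6 FPKM in Control. Both had PJ34 libraries below both controls, with log2 differences of −1.92 ± 0.72 and −1.88 ± 0.66. Prosβ4 (CG17331, 2L, 16731212 to 16732129) had 168 and 228 FPKM in PJ34, 206 and 171 FPKM in PARP1 KD, and 193 and 155 FPKM in Control, and its groups overlapped. Prosβ7 was lower in both PJ34 libraries (92.6 and 43.8 FPKM) than in both Control libraries (188 and 116 FPKM).

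The Rpt genes, which encode the ATPase ring of the cap, had a median log2 difference of −1.62 in PJ34 against Control. All 6 had both PJ34 libraries below both Control libraries, against 54.1% of all genes. Rpt4 (CG3455, X, 6183500 to 6185276) was the least abundant by the mean over the 6 libraries, with 32.8 and 5.22 FPKM in PJ34, 81.7 and 65.0 FPKM in PARP1 KD, and 103 and 42.8 FPKM in Control. Its log2 difference between PJ34 and Control was −2.22 ± 0.76 (adjusted p = 0.139). Rpt6 (CG1489, X, 21187086 to 21188690) was the most abundant, with 123 and 72.3 FPKM in PJ34, 166 and 126 FPKM in PARP1 KD, and 173 and 133 FPKM in Control, a log2 difference between PJ34 and Control of −0.68 ± 0.45. Rpt1 (CG1341, 2R, 3539940 to 3541453) had 80.5 and 24.7 FPKM in PJ34, 117 and 81.85 FPKM in PARP1 KD, and 141 and 112 FPKM in Control. Both Rpt1 and Rpt6 lie almost wholly within the span of another gene, CG17985 over 1514 bases and CG1801 over 1464 bases, so their values are less certain, although CG1801 itself was listed below 0.11 FPKM in every library.

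The 11 Rpn genes had a median log2 difference of −1.52 in PJ34 against Control. For 6 of the 11 both PJ34 libraries lay below both Control libraries, a share near the 54.1% of all genes. Rpn1 (CG7762, 3L, 19908155 to 19911265) and Rpn2 (CG11888, 3R, 24979184 to 24982981) encode the largest subunits, scaffolds on which ubiquitin receptors and the ATPase ring dock. Rpn1 had 21.5 and 2.68 FPKM in PJ34, 41.9 and 31.2 FPKM in PARP1 KD, and 93.0 and 19.97 FPKM in Control. Rpn2 had 22.75 and 2.40 FPKM in PJ34, 42.7 and 40.4 FPKM in PARP1 KD, and 93.6 and 15.9 FPKM in Control. For both, Control library 1 was the highest of the 6 and Control library 2 lay below PJ34 library 1, so the groups overlapped although the log2 differences between PJ34 and Control, −2.29 ± 0.91 and −2.16 ± 0.97, were among the 3 lowest. Rpn5, a scaffold of the lid, followed the same course, with PJ34 library 2 the lowest at 3.50 FPKM and Control library 1 the highest at 104 FPKM.

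Rpn10, Rpn11 and Rpn13 were among the 6 Rpn genes for which PJ34 and Control did not overlap. Rpn10 (CG7619, 3L, 21530099 to 21531683), which binds ubiquitin chains, had 40.2 and 11.3 FPKM in PJ34, 83.7 and 71.8 FPKM in PARP1 KD, and 89.7 and 45.0 FPKM in Control (log2 −1.52 ± 0.63 for PJ34 against Control). Rpn13 (CG13349, 2R, 9846032 to 9847909), which also binds them, had 29.2 and 4.49 FPKM in PJ34, 82.4 and 90.8 FPKM in PARP1 KD, and 85.4 and 36.6 FPKM in Control (log2 −2.15 ± 0.76). Rpn11 (CG18174, 2L, 5058395 to 5059816), the metalloprotease that removes ubiquitin from the substrate, had 71.9 and 24.8 FPKM in PJ34, 130 and 106 FPKM in PARP1 KD, and 126 and 88.2 FPKM in Control (log2 −1.30 ± 0.55). In all 3 the PJ34 libraries were the lowest of the 6. Rpn6 (CG10149, 2R, 10637655 to 10640415), which clamps the cap to the core, was the most abundant Rpn gene by the mean over the 6 libraries and the cap gene with the difference between PJ34 and Control nearest to 0, with 96.6 and 78.0 FPKM in PJ34, 114 and 82.6 FPKM in PARP1 KD, and 123 and 125 FPKM in Control (log2 −0.51 ± 0.42). REG (CG1591, X, 13106365 to 13108014), outside core and cap, had 139 and 102 FPKM in PJ34, 158 and 106 FPKM in PARP1 KD, and 204 and 168 FPKM in Control, and both Control libraries lay above the other 4 (log2 −0.63 ± 0.43 for PJ34 against Control, adjusted p = 0.257).

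The difference of a member went with the length of its transcript, as it did for genes in general. The members of 500 to 1000 bases were 9 core genes and Rpn12, with a median log2 difference in PJ34 against Control of −0.46. Those of 1000 to 1500 bases were 5 core and 9 cap genes, with a median of −1.34. Those of 1500 to 2500 bases were 5 cap genes and REG, with a median of −1.62, and the 2 over 2500 bases were Rpn1 and Rpn2, with a median of −2.22. The medians of all genes tested in these classes were 0.10, −0.65, −1.17 and −1.45 in PJ34 against Control, in each class above the median of the members. Spearman's rho between length and log2 difference, as a description over genes, was −0.50 for the members, −0.55 within the cap, −0.18 within the core and −0.51 for all genes with a length. A relation with length was also present between libraries of the same group. For library 2 minus library 1, rho in PJ34 was −0.50 for the members, −0.15 within the core and −0.64 for all genes. In Control these values were −0.39, 0.0022 and −0.52. After each library's own trend on length was removed, the medians in PJ34 against Control were −1.07 for the core and −1.58 for the cap, so the distance between core and cap was smaller but the cap remained lower, and Prosβ1, Prosβ4 and Prosα1 turned from positive to negative. Core genes of like length differed from each other in 2 pairs picked after the values were seen. Prosβ5 and Prosβ2 have annotated lengths of 1108 and 1034 bases, and Prosα5 and Prosβ3 have 879 and 914 bases. The part of length in these differences was not tested.

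**Figure D3:**
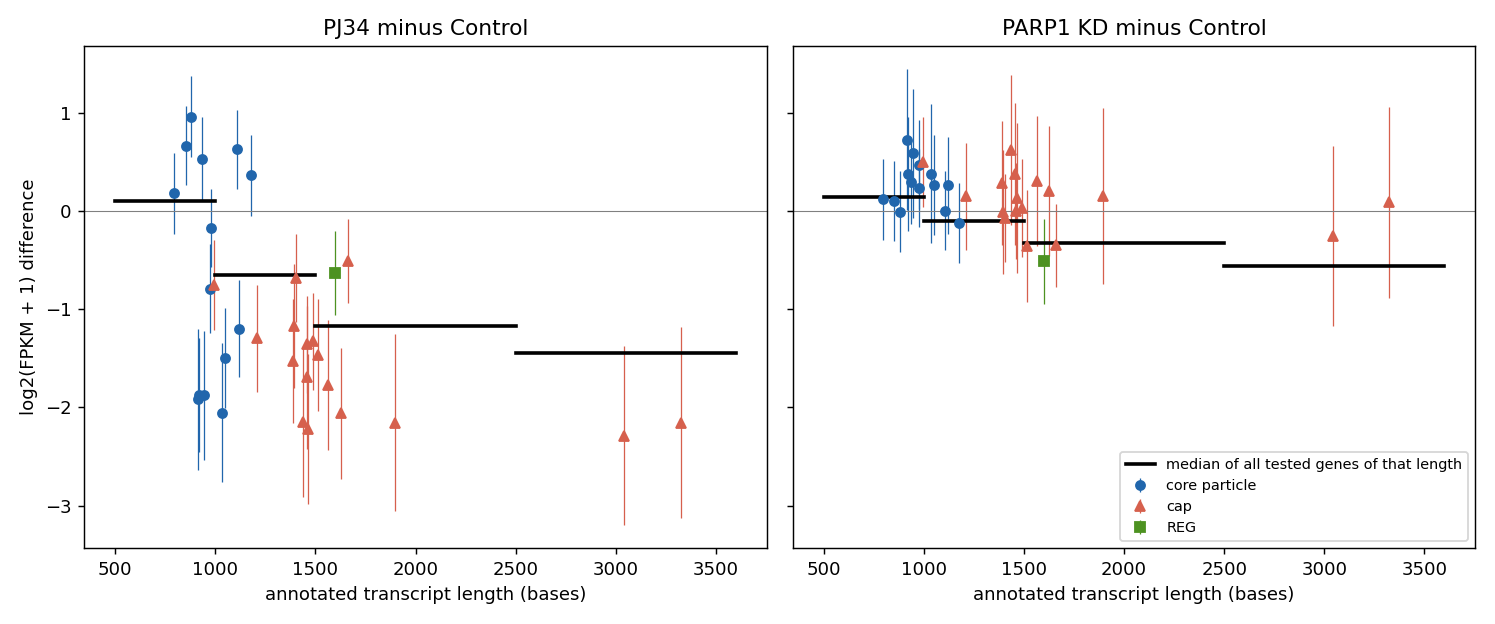
Log2(FPKM + 1) difference of each member against annotated transcript length in bases, PJ34 minus Control on the left and PARP1 KD minus Control on the right; vertical lines are the standard error from limma and black bars the median of all tested genes in a length class. Members of 500 to 1000 bases run from 0.96 (Prosα5) to −1.92 (Prosβ3) in PJ34, and in PARP1 KD the members lie between −0.51 and 0.73.

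In PARP1 KD against Control, which shares its Control libraries with the PJ34 comparison, the members had differences near 0 before any centring. With each library centred on its median, the core stood at 0.66 and the cap at 0.52. Without centring, the median log2 difference was 0.15 over the 32 members, 0.26 over the core (12 positive and 2 negative) and 0.13 over the cap (11 positive and 6 negative), against −0.28 over all genes tested. No member was called, against 0% of all genes, and at an unadjusted p of at most 0.05 0 members were higher and 0 lower, against 0.356% and 2.5% of all genes. The groups did not overlap for 5 members that were higher (Prosα1, Prosα3, Prosα7, Prosβ6 and Rpn12) and 2 that were lower (Rpn6 and REG) in PARP1 KD, against 10.5% and 34.9% of all genes. The highest log2 differences were those of Prosβ3 (0.73 ± 0.72), Rpn13 (0.62 ± 0.76) and Prosβ6 (0.59 ± 0.66), and the lowest those of REG (−0.51 ± 0.43), Rpt1 (−0.35 ± 0.57) and Rpn6 (−0.35 ± 0.42). Against Control library 1 alone, the median of the members was −0.02 for PARP1 KD library 1 and −0.31 for library 2, and against Control library 2 alone it was 0.80 and 0.51. Without Control library 2 the core median was −0.04 and the cap median −0.26, and without PARP1 KD library 1 the cap median was −0.0058, so these signs rested on single libraries.

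The direct comparison of the treatments took neither Control library into its difference. Members were higher in PARP1 KD than in PJ34 by a median log2 difference of 1.40, with 0.84 for the core and 1.80 for the cap, against 0.67 over all genes tested. No member was called, against 2.57% of all genes, and the adjusted p of the members ran from 0.0691 (Prosα2) to 0.928 (Prosβ4). At an unadjusted p of at most 0.05, 20 members were higher and 1 was lower (Prosα5), against 16.4% and 7.35% of all genes. The groups did not overlap for 24 members that were higher and 4 that were lower (Prosα4, Prosα5, Prosβ1 and Prosβ5) in PARP1 KD, against 43.8% and 17.3% of all genes. The highest differences were those of Rpn13 (2.77 ± 0.76), Prosβ3 (2.64 ± 0.72) and Prosβ6 (2.46 ± 0.66), and the lowest was that of Prosα5 (−0.97 ± 0.41). After removal of the length trend 4 members were called (Prosβ3, Rpn13, Prosβ6 and Prosα2), against 6.42% of all genes, and with only these 4 libraries in the fit 7 were called, against 6.25%. Without PJ34 library 1, 23 members were called, against 57.8% of all genes. Without Control library 1 the count was 7, against 5.9%, and without Control library 2 it was 9, against 7.02%.

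In the transcript rows, 2 of the 8 members with several rows had an isoform whose share shifted by over 20 percentage points between groups that did not overlap. How often such shifts occur over all genes with several transcripts was not counted, so this count is no trait of the members. The clearest was Rpn6-RA (2R, 10637655 to 10640415), whose annotated span reaches farther upstream on the minus strand than that of Rpn6-RB (2R, 10637655 to 10639823). Rpn6-RA was at or near 0 in PJ34 (below 0.01 FPKM in both libraries), at 58.5 and 57.5 FPKM in PARP1 KD, and at 0.314 and 0.00296 FPKM in Control. It took 51.2% and 69.6% of the gene in PARP1 KD, while Rpn6-RB took at least 99.7% in every PJ34 and Control library, and the total of the gene had a log2 difference of −0.35 ± 0.42 from Control. Rpn6-RA was chosen for this shift and reached the minimum level only through PARP1 KD, so these values are given without a test. Rpn6 overlaps ave on the other strand by 386 bases, and the alignment used the default settings of TopHat2, which treat reads as unstranded, so fragments of the overlap cannot be told apart. ave had 89.9 and 104 FPKM in PJ34, 39.0 and 35.7 FPKM in PARP1 KD, and 27.4 and 44.4 FPKM in Control, a different order from that of Rpn6-RA.

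The second was Prosα1, for which the RA transcript took 37.5% and 47.02% of the gene in PJ34, 74.5% and 82.6% in PARP1 KD, and 44.4% and 51.2% in Control. Both forms share the coordinate 3714805 and end close to each other, at 3716166 (RA) and 3716181 (RB), and how many fragments tell them apart is unknown. Prosβ5-RB took 43.1% of the gene in PARP1 KD library 2 but at most 5.44% in each of the other 5 libraries, a difference between the PARP1 KD libraries themselves.

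**Figure D4:**
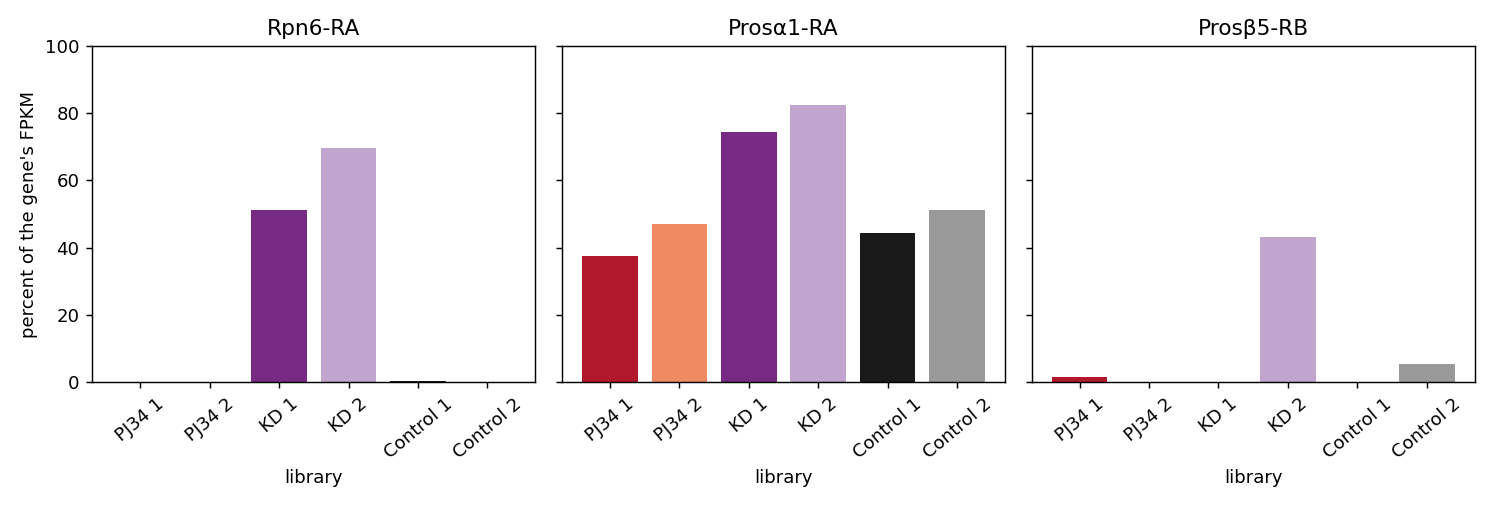
Percent of the gene's summed FPKM that the named transcript took in each of the 6 libraries, for Rpn6-RA, Prosα1-RA and Prosβ5-RB. Rpn6-RA stands at 51.2% and 69.6% in PARP1 KD and below 1% in PJ34 and Control, and Prosβ5-RB is high in PARP1 KD library 2 alone.

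Genes around the proteasome were counted from lists, none of which had a member called in any of the 3 comparisons, and whose medians stand beside −1.08 (PJ34 against Control) and −0.28 (PARP1 KD against Control) over all genes tested. Of 14 genes for ubiquitin itself and for the enzymes that activate and pass it on, all were tested, with a median log2 difference of −0.96 in PJ34 against Control and −0.32 in PARP1 KD against Control. For 9 shuttle factors, p97 components and deubiquitinases the medians were −1.35 and −0.17. Of the COP9 signalosome, a complex built like the lid of the cap, 8 of 9 genes were tested, and the medians were −1.19 and −0.05, with 7 genes lower and 1 higher (CSN8, 1.53) without overlap in PJ34, where 54.1% and 13.1% of all genes were. Of 4 transcriptional regulators, CncC's partner maf-S was the member higher in PJ34 (171 and 251 FPKM in PJ34, 68.3 and 152 FPKM in Control, log2 1.02), and cnc had 11.4 and 4.17 FPKM in PJ34 and 10.2 and 10.0 FPKM in Control. Of 6 assembly factors and other activators 3 were found, with a median of −0.30 in PJ34 against Control. Of 14 paralogs of proteasome subunits used in the germline only 2 (Rpt3R and Rpt6R) reached the minimum, and the 14 together summed to 31.4 and 23.6 FPKM in PJ34, 25.9 and 21.3 FPKM in PARP1 KD, and 18.05 and 21.01 FPKM in Control.

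The course of the members over the 6 libraries was shared by many genes outside the proteasome. The median profile of the members correlated most closely with CG10073 (Pearson r = 0.999, on log2 values over 6 libraries), followed by CG12259, CG12795, Naa20A and Sap30. Of the 7308 genes tested, 1785 that are not members exceeded an r of 0.95. The profile is the median of the members themselves, so a high r was built in for most of them. Among the members, r with that profile was above 0.93 for 23 genes, of which Rpn12 (0.932) and Rpn2 (0.947) lay below 0.95. The r was 0.677 for REG, 0.695 for Rpn6 and 0.773 for Prosα7. It was negative for the other 6, Prosβ1 (−0.90), Prosα5 (−0.84), Prosα4 (−0.79), Prosα1 (−0.78), Prosβ5 (−0.63) and Prosβ4 (−0.43), all of them core genes. By chromosome arm the median log2 difference of the members in PJ34 against Control was −0.34 on 2R (n = 10), −0.68 on X (n = 5), −1.30 on 2L (n = 3), −1.87 on 3R (n = 9) and −1.88 on 3L (n = 5), against −0.99 to −1.12 for all genes tested on these arms.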

How the data were processed

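RNA of S2 cells was sequenced as paired-end libraries. The authors aligned reads to the dm3 build with TopHat2 2.0.10 and made FPKM with Cufflinks 2.1.1 and Cuffdiff2, which the deposited table gives as 1 row per transcript and 1 column per library, with a minimum of 7 alignments. FPKM of a CG number were summed. Genes averaging 1 FPKM or more were fitted as log2(FPKM + 1), a scale that understates changes of low genes, in limma 3.58.1 (R 4.3.3; all 6 libraries, a mean per group, intensity trend, Benjamini-Hochberg adjustment). FPKM are no counts, so no count model was fitted. Summaries used Python 3.11.15, pandas 2.3.3, numpy 2.4.6 and scipy 1.17.1. Symbols were matched for 13636 of 14012 genes and transcript lengths for 13623, from the newer BDGP6 annotation. Coordinates are as deposited, in dm3.

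Members and lists were chosen with earlier results of these data known. Named were members past the threshold, the 3 highest and 3 lowest per comparison with Control, Prosβ1, Prosβ2, Prosβ5, REG, Rpn1, Rpn2, Rpn10, Rpn11, the most and least abundant of each subunit class, members with an isoform share shifted by over 20 points without overlap, and the 5 genes most like the members' median profile. Prosα2, Prosα4, Prosβ7, Rpn5, Prosβ5-RB, ave, CSN8, cnc and maf-S were added after values were seen.

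The same fit was run on simulated data for PJ34 against Control with 200 of 7308 genes changed: 18.5% were recovered at a log2 change of 2 and 98.5% at 4, with 1 of 38 and 10 of 207 calls false. The simulation drew independent noise for each gene, with 1 spread per gene over all libraries and no shift shared by a library. Alternatives were pseudocounts of 0.1 and 5, quantile normalization, median centring, removal of each library's trend on length, all genes above 0 or a mean of at least 5 FPKM, only the 4 libraries compared, no intensity trend, transcript rows, an unadjusted p of at most 0.05 and each library left out. Restricting to members that overlap no other gene, a block of the column numbers, the alternatives on the Rpn6-RA transcript and pairs of single libraries were chosen after seeing the data. The roX1 and roX2 markers were not matched. Sequences were not used here.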

Additional observations from a re-analysis of the deposited data

How the results depend on the processing

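Genes called in PJ34 against Control numbered 47, and 27 with a pseudocount of 0.1, 76 with 5, 164 after quantile normalization, 285 after length correction, 7 with all genes above 0, 15 with 4 libraries, 28 without the intensity trend, 5 as transcript rows, 2273 at an unadjusted p of at most 0.05, and 9 to 5106 with a library left out. Members called (0) became 19 unadjusted and 0 to 24 with a library left out, highest without PJ34 library 1. The core median (−0.48) became 0.66 with median centring and −1.07 with length correction, and −0.77 to −0.20 with a library left out; the cap median (−1.52) was −2.40 to −0.74. Median centring reversed REG (0.51), Rpn6 (0.63) and Rpt6 (0.46), length correction reversed Prosβ1 (−0.13), Prosβ4 (−0.73) and Prosα1 (−0.12), and leaving out PJ34 library 2 reversed Prosβ4 (range −0.039 to 0.40 with a library left out). In PARP1 KD against Control, 0 genes were called by limma, 209 at an unadjusted p of at most 0.05, 23 with 4 libraries, 15 as transcript rows and 0 to 72 with a library left out, and members called (0) became 1 as transcript rows. The core median (0.26) became 0.66 with median centring and 0.024 with length correction, and −0.038 to 0.451 with a library left out; the cap median was −0.263 to 0.754. Rpt1 (0.039) and Rpn6 (0.045) reversed with median centring, and Prosβ3 without Control library 2 (range −0.035 to 1.49). In PARP1 KD against PJ34, 188 genes were called, and 69 and 284 with pseudocounts of 0.1 and 5, 555 after quantile normalization, 117 with median centring, 466 after length correction, 6 with all genes above 0, 117 with a mean of at least 5 FPKM, 457 with 4 libraries, 56 without the trend, 1735 unadjusted and 1 to 4222 with a library left out. Members called (0) became 4 after length correction, 7 with 4 libraries, 1 as transcript rows, 21 unadjusted and 0 to 23 with a library left out. The core median (0.84) became 0.089 with median centring, 1.17 with length correction, 0.41 over members without overlap and 0.551 to 1.12 with a library left out; the cap median was 0.851 to 2.68. With medians in place of sums the core to cap ratio was 2.14 and 2.01 in PARP1 KD and 1.64 and 3.08 in Control. The causes were not tested. With a library left out, the lone library of its group is assumed to vary like the other groups.

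With the column numbers 1 and 2 as a replicate block, 3158 genes and 19 members were called in PJ34 against Control, 67 genes and 0 members in PARP1 KD against Control, and 1730 genes and 18 members in PARP1 KD against PJ34. This block was chosen after seeing the data. The labels give both libraries of a treatment the number 1 and tie no column number to them, so the libraries were not paired. The differences between library 2 and library 1 correlated over genes at 0.54 between PJ34 and Control. They correlated at 0.09 between PARP1 KD and PJ34 and at 0.08 between PARP1 KD and Control. The PJ34 and Control pairs thus had part of their difference between libraries in common, and what lies behind it was not tested.

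In PARP1 KD against Control, 0 members were called by gene and 1 as transcript rows, and the same counts held in PARP1 KD against PJ34. In each the member called was Rpn6, through Rpn6-RA, a row that reached the minimum only through PARP1 KD. A row near 0 in the other groups enters the fit only when PARP1 KD is high, so no conclusion is drawn from either call. The call against Control was also lost with a pseudocount of 0.1 and with median centring. In simulated data for PJ34 against Control, 18.5% of genes changed by a log2 of 2 were recovered, so changes of this size were often missed in that setting. The simulation held no shift shared by a library. In the real PJ34 pair, library 2 minus library 1 had a median log2 of −1.19 over all genes tested. The share recovered in the real data is therefore unknown.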
